A study of Homo sapiens with 12 samples.

Results

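The genes described here encode the carriers, enzymes and import factors that take fatty acids through oxidation in mitochondria and peroxisomes. The list of genes was drawn up with earlier results of these data known. Among its 37 symbols are the older names DCI and PECI for ECI1 and ECI2. Probes were then taken by name: every probe whose symbol in the deposited raw table is one of those listed. That rule found 53 of 47323 probes, for 35 genes, and 34 of these genes could be tested among 17121. The gene without a test was ACADL, the long-chain acyl-CoA dehydrogenase, whose probe was above background on 1 of 12 arrays. Of the tested genes, 22 act in mitochondria, 8 in peroxisomes and 3 in both, and CPT1C sits in the endoplasmic reticulum.

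RNA from LNCaP cells, an androgen-responsive human prostate cancer line, was hybridised to bead arrays, 12 arrays in 4 groups of 3. A control siRNA or an siRNA against ERRγ (the nuclear receptor encoded by ESRRG) was transfected, and 48 h later, for a further 72 h the cells were given either R1881, an androgen analogue, at 10 nM or the ethanol it was dissolved in. The groups are the control siRNA with vehicle, the control siRNA with R1881, the ERRγ siRNA with vehicle and the ERRγ siRNA with R1881. All of them share the transfection and a medium without phenol red that holds 2% steroid-deprived serum, so the vehicle groups are androgen-poor cultures of a single cell line. The labels speak of triplicates without saying that these were separate cultures, so the p-values measure the spread between these arrays, which may be technical.

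Fatty acids enter mitochondria as carnitine esters through the carnitine shuttle. Inside, repeated rounds of dehydrogenation, hydration, a further dehydrogenation and thiolytic cleavage release acetyl-CoA, and electrons leave through the electron transfer flavoprotein. Peroxisomes run a related cycle with their own oxidases, bifunctional enzyme and thiolase, for very long and branched chains such as phytanic acid. ERRγ belongs to the estrogen-related receptors, orphan nuclear receptors known in heart and muscle for driving genes of mitochondrial energy metabolism, many of fatty acid oxidation among them. The androgen receptor is the main growth regulator of luminal prostate cells, whose lipid metabolism it is known to influence.

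The siRNA's target was checked first. None of the 3 ESRRG probes was above background on any of the 12 arrays, with raw signals of 86.0 to 99.9, so the knockdown could not be measured here, while the probe for the related ESRRA was detected on all 12. Each array detected 18698 to 20536 probes, and replicate arrays correlated at 0.99 to 0.995. Of 10 luminal prostate markers, 9 were detected on every array. The basal keratins KRT5 and KRT15, the stromal DCN and COL1A2 and the immune PTPRC were detected on none. COL1A1, ACTA2, CD68 and the hepatocyte genes ALB and TTR were detected on all 12. Of the 34 tested fatty acid oxidation genes, 33 were detected on all 12 arrays, and CPT1B on 9.

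With the control siRNA, R1881 moved 21 of the 34 genes, 12 up and 9 down, and both organelles had genes in each direction. ECI2 and SLC25A20 rose 2.44-fold and 2.22-fold, and ACAA2 and PHYH fell by 1.10 and 0.94 on the log2 scale. Calls are adjusted p-values under 0.05 in limma, over all 17121 genes, and every change below is a difference of mean log2 normalised signal between 3 arrays and 3. The 21 called genes are 61.8% of the members, beside 40.0% of all genes (17.7% higher and 22.3% lower) and 49.8% of genes detected on all 12 arrays. R1881 moved 11 members by at least 1.5-fold, where 17.9% of all genes reached that size. Which members reached it depended on the normalisation, as given below. The members' median change was 0.07, beside -0.03 for all genes. For 25 of the 34 genes the 3 R1881 arrays all lay on one side of the 3 vehicle arrays, as they did for 47.0% of all genes. RNA of a whole culture cannot tell fewer cells of a kind from less RNA per cell.

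With the ERRγ siRNA, whose arrays are other arrays, R1881 moved 18 of the 34 genes, 9 up and 9 down, or 52.9% beside 37.1% of all genes (16.7% higher and 20.4% lower). Among genes detected on all 12 arrays the share called was 46.4%. With both siRNAs 17 genes were called in the same direction, beside 28.4% of all genes. Of these, 8 rose (SLC25A20, CPT2, ACAD8, HADH, ECI2, ACOX2, ACOX3 and ACAA1) and 9 fell (CRAT, ETFB, HADHA, HADHB, ACAA2, ACAT1, DECR1, PHYH and EHHADH). ACADVL, ACADSB, ETFA and ABCD3 were called only with the control siRNA and ECI1 only with the ERRγ siRNA, but the interaction, which tests such differences, called none of them. The plot of changes by step shows the whole list.

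**Figure D1:**
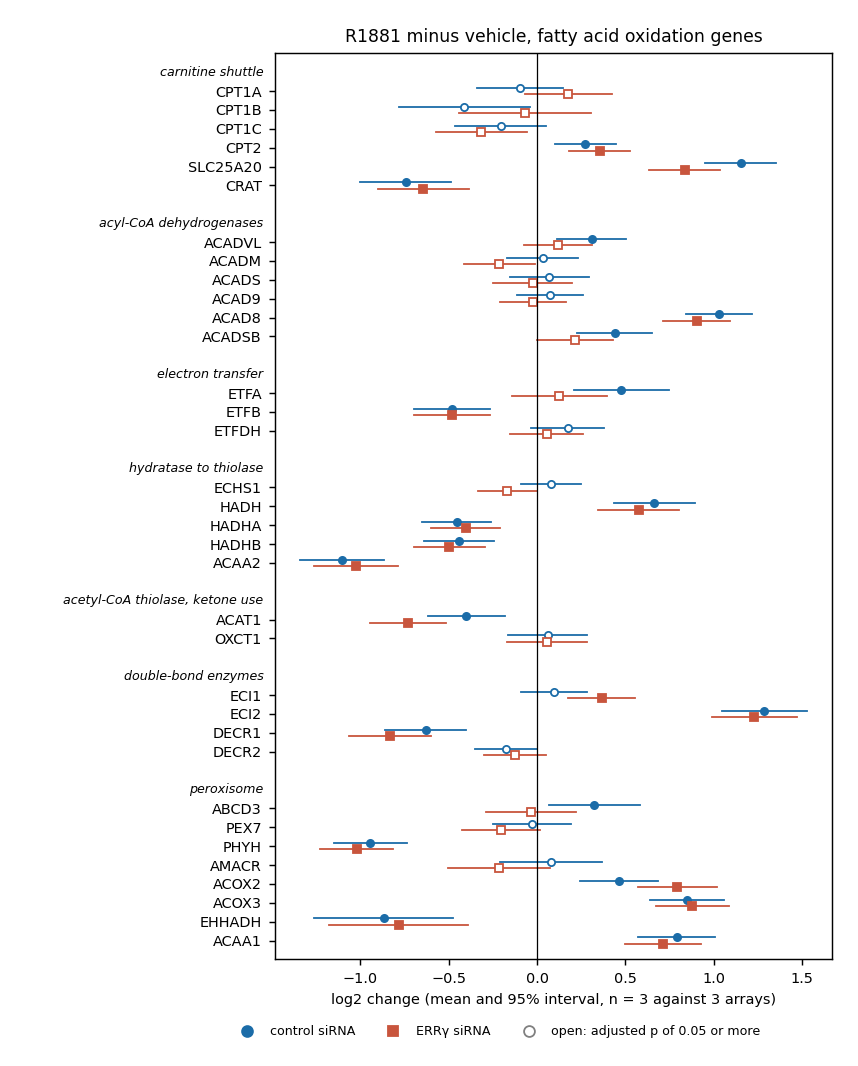
Change with R1881 against vehicle (x axis, log2, mean and 95% interval, 3 arrays against 3) for the 34 tested genes, ordered by step (y axis), with the control siRNA in circles and the ERRγ siRNA in squares; filled symbols passed an adjusted p of 0.05. With the control siRNA ECI2 lies at 1.29 and ACAA2 at -1.10, next to PHYH at -0.94, which is lower than ACAA2 at a background offset of 50.

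The carnitine shuttle moved at its inner membrane and not, by this test, at its entry. SLC25A20, the carrier that exchanges acylcarnitine for carnitine across the inner membrane, read 6.56, 6.69 and 6.67 on the control siRNA's vehicle arrays and 7.69, 7.94 and 7.75 with R1881. The ERRγ siRNA arrays read 6.91, 6.76 and 6.88 in vehicle and 7.76, 7.70 and 7.59 with R1881. Every R1881 array lay above every vehicle array, and the rise was 1.15 ± 0.09 (SE) with the control siRNA (adjusted p = 3.06e-07, limma) and 0.84 ± 0.09 with the ERRγ siRNA (adjusted p = 7.58e-06). CPT2, which rebuilds acyl-CoA in the matrix, rose by 0.27 and 0.35. CRAT, which moves acetyl groups to and from carnitine in both organelles, went the other way. Its vehicle arrays read 6.72, 6.84 and 7.22 with the control siRNA and 6.77, 6.88 and 6.85 with the ERRγ siRNA, and its R1881 arrays 6.21, 6.06 and 6.29 and 6.17, 6.09 and 6.30. The groups did not overlap, and CRAT fell by 0.74 and 0.64 (adjusted p = 0.000211 and 0.000738, limma). The outer-membrane enzyme CPT1A, the control point of entry, was not called, at -0.10 with the control siRNA and 0.18 with the ERRγ siRNA. CPT1B, the muscle form, read -0.41 and -0.07 without a call, and it was above background on 6 of 6 vehicle arrays but 3 of 6 with R1881. CPT1C, a form known mainly from neurons, read -0.20 and -0.32 and also missed the threshold (adjusted p = 0.201 and 0.0535, limma).

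The acyl-CoA dehydrogenases, which open each round, had 3 of 6 members higher with the control siRNA and 1 of 6 with the ERRγ siRNA, and none lower in either, beside 17.7% and 16.7% of all genes higher and 22.3% and 20.4% lower. The 1 of 6 is no larger a share than that of all genes. These 6 are only the listed ones: the related ACAD11 and ACAD10, given below with the neighbouring genes, were called lower with both siRNAs. The member that rose in both was ACAD8, the isobutyryl-CoA dehydrogenase of valine breakdown. It read 8.56, 8.60 and 8.55 in vehicle and 9.48, 9.65 and 9.66 with R1881 under the control siRNA. Under the ERRγ siRNA it read 8.72, 8.68 and 8.68 and then 9.48, 9.61 and 9.71. The groups lay far apart against a spread of at most 0.114 (SD, n = 3), with rises of 1.03 ± 0.09 and 0.90 ± 0.09 (SE). The enzymes for straight chains had smaller changes. ACADVL, for very long chains, rose by 0.31 with the control siRNA, a call lost without vehicle replicate 1 or R1881 replicate 2 of that siRNA, and read 0.12 with the ERRγ siRNA. ACADM for medium chains (0.03 and -0.21), ACADS for short chains (0.07 and -0.02) and ACAD9, known also as an assembly factor of respiratory complex I (0.07 and -0.02), were not called. ACADSB, for short branched chains, rose by 0.44 with the control siRNA, and read 0.21 with the ERRγ siRNA.

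The subunits of the electron transfer flavoprotein moved in opposite directions with the control siRNA. ETFA, the alpha subunit, rose by 0.48 ± 0.13 (SE), from a mean of 11.14 to 11.62. ETFB, the beta subunit, fell by 0.48 ± 0.10, from 11.40 to 10.92. With the ERRγ siRNA ETFB fell by 0.48 again, and ETFA read 0.13 without a call. ETFDH, which passes the electrons on to ubiquinone, was not called, at 0.17 and 0.06.

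The later steps of the mitochondrial cycle split between a dehydrogenase that rose and a thiolase and the trifunctional protein's subunits that fell. HADH, the hydroxyacyl-CoA dehydrogenase for short and medium chains, read 10.61, 10.63 and 10.60 in vehicle and 11, 11.42 and 11.40 with R1881 under the control siRNA. Under the ERRγ siRNA the values were 10.79, 10.72 and 10.76 and then 11.27, 11.33 and 11.40. All R1881 arrays were higher, by 0.66 ± 0.11 and 0.58 ± 0.11 (SE). ACAA2, the mitochondrial thiolase, read 7.16, 7.13 and 7.25 in vehicle and 6.22, 6.06 and 5.95 with R1881 under the control siRNA. The other siRNA gave 7.06, 7.07 and 7.07 and then 6.25, 5.81 and 6.05. It fell by 1.10 ± 0.11 and 1.03 ± 0.11 (adjusted p = 2.47e-06 and 5.37e-06, limma). With a background offset of 50, without background correction and in the authors' values, PHYH fell further than ACAA2. ECHS1, the short-chain hydratase that acts before HADH, was not called, at 0.08 and -0.17.

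HADHA and HADHB, the subunits of the mitochondrial trifunctional protein, fell together. HADHA went from 7.87 ± 0.08 to 7.41 ± 0.13 (SD, n = 3) with the control siRNA, and HADHB from 8.88 ± 0.06 to 8.44 ± 0.16. Both fell again with the ERRγ siRNA, by 0.40 and 0.50, and no R1881 array of either gene reached a vehicle array. Their genes lie head to head on chromosome 2 (GRCh38.p14), with RefSeq starts 307 bases apart. The windows from 250 bases before to 50 after each start, HADHA at chr2:26244583-26244882 on the minus strand and HADHB at chr2:26244689-26244988 on the plus strand, therefore share 194 bases, at 68.6% GC. They are printed because a pair of genes that moved together has a common upstream stretch, which stands in capitals. Because each window is printed along its own gene, the capitals of one line are the reverse complement of those of the other.
HADHA: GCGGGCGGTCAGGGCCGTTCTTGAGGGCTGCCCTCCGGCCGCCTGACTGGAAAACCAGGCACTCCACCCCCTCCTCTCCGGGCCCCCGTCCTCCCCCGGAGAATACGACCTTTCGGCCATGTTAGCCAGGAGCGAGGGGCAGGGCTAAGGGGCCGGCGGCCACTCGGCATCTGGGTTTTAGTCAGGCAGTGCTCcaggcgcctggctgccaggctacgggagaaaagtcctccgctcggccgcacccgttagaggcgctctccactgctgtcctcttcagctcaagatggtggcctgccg
HADHB: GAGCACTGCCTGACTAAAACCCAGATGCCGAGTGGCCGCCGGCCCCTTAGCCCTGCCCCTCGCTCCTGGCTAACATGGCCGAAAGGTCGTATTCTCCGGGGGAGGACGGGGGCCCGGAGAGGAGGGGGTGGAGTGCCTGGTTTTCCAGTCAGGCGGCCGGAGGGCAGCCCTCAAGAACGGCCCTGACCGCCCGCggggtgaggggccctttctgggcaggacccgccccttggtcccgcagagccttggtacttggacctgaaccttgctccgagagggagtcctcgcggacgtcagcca

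ACAT1, which joins and splits acetyl-CoA units at the meeting of oxidation and ketone bodies, fell by 0.40 ± 0.10 with the control siRNA and by 0.73 ± 0.10 (SE) with the ERRγ siRNA. OXCT1, which lets cells use ketone bodies, read 0.06 in each and was not called.

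Of the enzymes that handle double bonds, an isomerase rose and a reductase fell. ECI2, the enoyl-CoA isomerase of mitochondria and peroxisomes, read 10.45, 10.39 and 10.18 in vehicle and 11.46, 11.83 and 11.58 with R1881 under the control siRNA. The ERRγ siRNA arrays read 10.58, 10.37 and 10.44 and then 11.62, 11.69 and 11.77. The R1881 arrays were all higher, by 1.29 ± 0.11 and 1.23 ± 0.11 (SE; adjusted p = 5.98e-07 and 9.84e-07, limma). DECR1, the mitochondrial dienoyl-CoA reductase, read 10.22, 9.93 and 9.91 in vehicle and 9.22, 9.54 and 9.42 with R1881 under the control siRNA. Under the ERRγ siRNA DECR1 read 10.17, 10.11 and 10.13 and then 9.40, 9.26 and 9.24. It fell by 0.63 and 0.83 with no overlap between the groups. ECI1, the mitochondrial isomerase, read 0.10 with the control siRNA and rose by 0.36 with the ERRγ siRNA. DECR2, the peroxisomal reductase, was not called, at -0.18 and -0.13, but passed with the control siRNA at a background offset of 50, without background correction and in the authors' values (-0.16, -0.15 and -0.15).

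**Figure D2:**
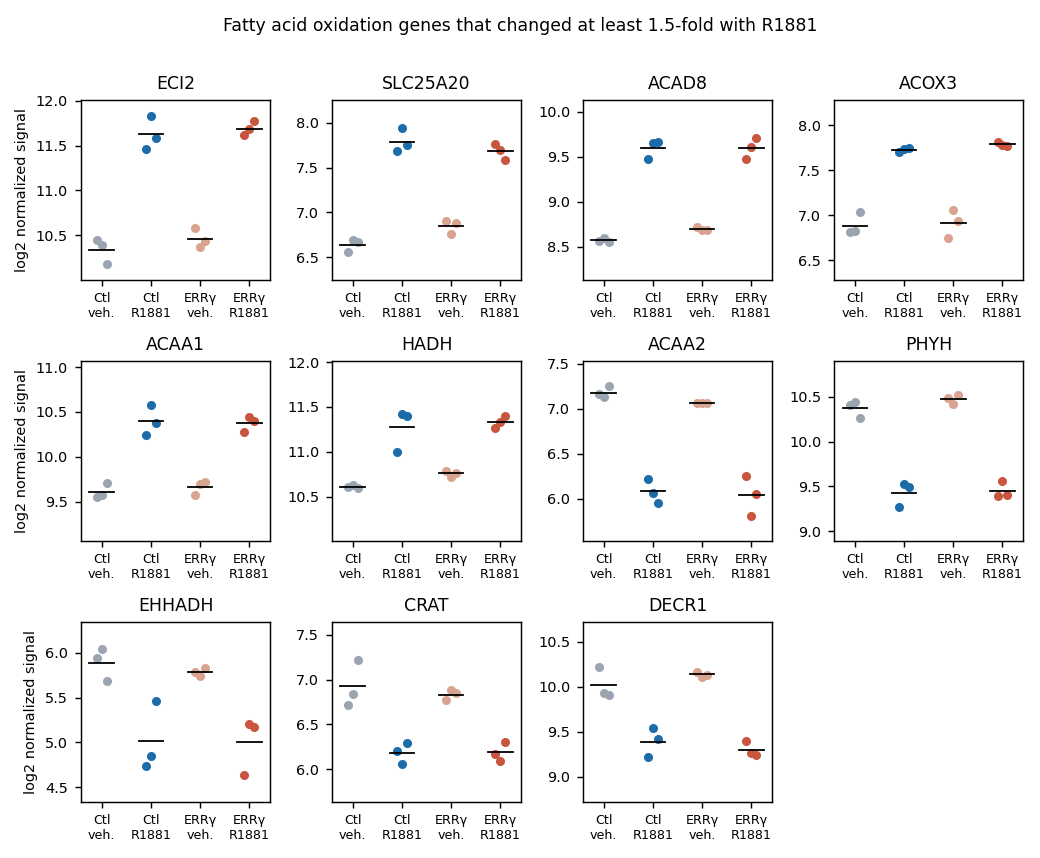
Log2 normalised signal (y axis) on each of the 12 arrays, in the 4 groups (x axis), for the 11 genes called with both siRNAs that changed at least 1.5-fold with the control siRNA; points are arrays and bars group means. In every panel the R1881 arrays lie wholly above or wholly below the vehicle arrays of the same siRNA, and the y axes differ between panels, so levels are not compared between genes.

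In the peroxisome the oxidases and the thiolase rose while the enzyme between them and the enzyme of alpha-oxidation fell. ACOX3, an oxidase for branched chains, read 6.81, 6.82 and 7.03 in vehicle and 7.70, 7.74 and 7.75 with R1881 under the control siRNA. The other siRNA gave 6.74, 7.06 and 6.93 and then 7.82, 7.78 and 7.77. It rose by 0.85 ± 0.10 and 0.88 ± 0.10 (SE), with no overlap. ACOX2, the oxidase of branched chains and bile acid intermediates, rose by 0.46 with the control siRNA, from 6.19 ± 0.19 to 6.65 ± 0.09 (SD, n = 3), and by 0.79 with the ERRγ siRNA. ACAA1, the peroxisomal thiolase, read 9.55, 9.58 and 9.71 in vehicle and 10.24, 10.58 and 10.38 with R1881 under the control siRNA. The ERRγ siRNA arrays read 9.57, 9.70 and 9.72 and then 10.28, 10.44 and 10.40. Its rises were 0.79 and 0.71, opposite in sign to its mitochondrial counterpart ACAA2. EHHADH, the bifunctional enzyme whose hydratase and dehydrogenase steps precede the thiolase, read 5.94, 6.04 and 5.68 in vehicle and 4.74, 4.85 and 5.46 with R1881 under the control siRNA. Under the ERRγ siRNA EHHADH read 5.79, 5.74 and 5.83 and then 4.64, 5.20 and 5.17. It fell by 0.87 ± 0.18 and 0.78 ± 0.18, with the R1881 arrays spread more widely than the vehicle arrays (SD 0.390 and 0.312 against 0.187 and 0.046).

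PHYH, the hydroxylase that starts alpha-oxidation of phytanic acid, read 10.41, 10.44 and 10.26 in vehicle and 9.27, 9.53 and 9.49 with R1881 under the control siRNA. Its ERRγ siRNA arrays read 10.48, 10.42 and 10.52 and then 9.39, 9.56 and 9.41. All R1881 arrays were lower, and PHYH fell by 0.94 ± 0.10 and 1.02 ± 0.10 (SE; adjusted p = 2.8e-06 and 1.4e-06, limma). PEX7, the receptor that brings PHYH and ACAA1 into peroxisomes, was not called, at -0.03 and -0.20. ABCD3, a transporter of the peroxisomal membrane, rose by 0.32 with the control siRNA (adjusted p = 0.0432, limma) and read -0.03 with the ERRγ siRNA. This call was lost when any of 9 arrays was left out: all 3 vehicle arrays and R1881 replicates 2 and 3 of the control siRNA, and all 3 vehicle arrays and R1881 replicate 1 of the ERRγ siRNA. The adjusted p then reached 0.19 (limma). AMACR, the racemase of branched chains that is used as a tissue marker of prostate cancer, was not called, at 0.08 and -0.21.

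Counted by compartment, each organelle had genes that rose and genes that fell. With the control siRNA 7 of 22 mitochondrial genes rose and 6 fell, with a median change of 0.07, and 4 of 8 peroxisomal genes rose and 2 fell, with a median of 0.15, beside 17.7% of all genes higher and 22.3% lower. With the ERRγ siRNA the mitochondrial genes had 5 higher and 6 lower (median 0.02) and the peroxisomal genes 3 higher and 2 lower (median -0.08), beside 16.7% and 20.4% of all genes. Of the 3 genes of both compartments, ECI2 rose, CRAT fell and AMACR was not called with either siRNA. Of the 4 peroxisomal genes that rose with the control siRNA, ABCD3 lost its call under 12 of 23 alternatives. These are counts on a list chosen by hand, and no test of a difference between the compartments was made. Other genes of both organelles are given below with the neighbouring genes. The plot by compartment shows both organelles with genes at each end.

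**Figure D3:**
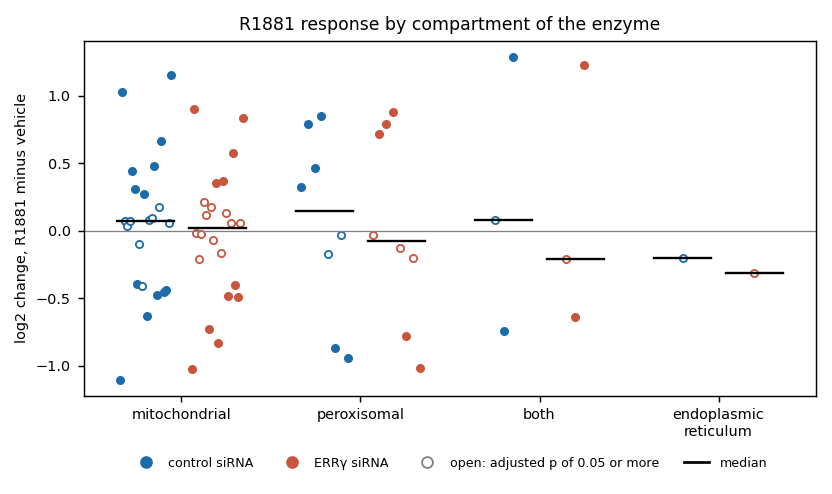
Change with R1881 against vehicle (y axis, log2) for each tested gene, by compartment (x axis) and siRNA; points are genes, filled where the adjusted p was under 0.05, and lines are medians. Mitochondrial genes run from -1.10 to 1.15 and peroxisomal genes from -0.94 to 0.85 with the control siRNA, around medians of 0.07 and 0.15.

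The size of a change depended on the normalisation for some genes. In the authors' normalised values, which lie on a narrower scale, the R1881 change with the control siRNA was 0.51 for SLC25A20, 0.38 for ACOX3, -0.37 for ACAA2, -0.24 for CRAT, -0.16 for EHHADH and -0.25 for HADHA. It was 0.15 for ACOX2, 0.11 for ABCD3 and 0.08 for ACADSB. Others moved less between the scales, with ECI2 at 1.33, ACAA1 at 0.76, HADH at 0.71, ACAD8 at 0.81, PHYH at -0.82 and DECR1 at -0.54. Of the 11 members that changed at least 1.5-fold, SLC25A20, ACOX3, ACAA2, CRAT, EHHADH and DECR1 did not reach that size in the authors' values.

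The brightest probe stood for each gene, and 10 genes had more than 1 probe above the filter. None had probes called in opposite directions for R1881 with the control siRNA. The probes of ECI2 read 1.29 and 1.56, those of SLC25A20 1.15 and 1.31, those of ETFB -0.48 and -0.58, and all 3 of PHYH fell, from -0.94 to -0.45. The other ACAD8 probe was above background on 0 of 6 vehicle arrays and 4 of 6 R1881 arrays, so it passed the filter only where it was high. Its change is not quoted and is no second reading of ACAD8. The probe is still counted among the 10 genes, drawn in the plot by probe and part of the mean of a gene's probes. Of the 3 ACADVL probes, 2 were called higher and the range ran from 0.08 to 0.62. The probes of AMACR ran from -0.28 to 0.08 and those of CPT1A from -0.14 to 0.14, with no call. The control siRNA's call of ACADVL without one for the ERRγ siRNA depended on the probe. With the ERRγ siRNA the ACADVL probe at 0.08 read 0.29 and was called (adjusted p = 0.047, limma). There the probe used for the gene read 0.12 and the probe at 0.62 read 0.37, without a call. The plot by probe shows this spread, which may include different transcripts of a gene and was not resolved here.

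**Figure D4:**
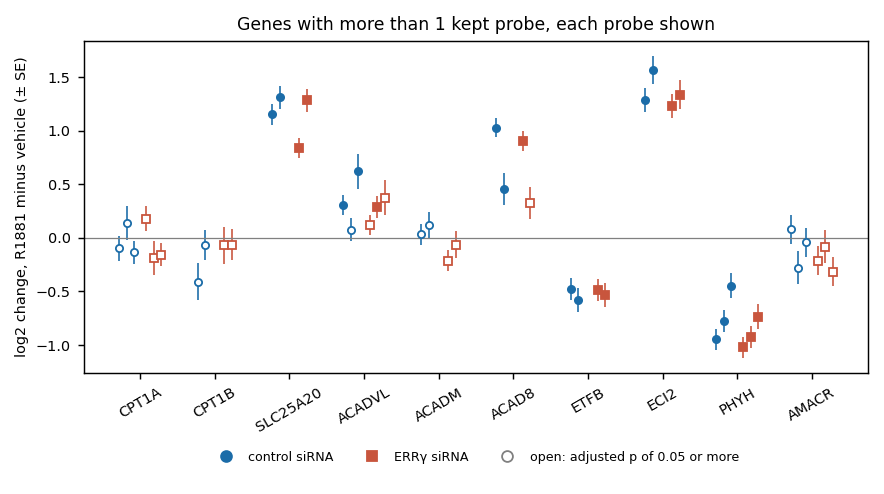
Change with R1881 against vehicle (y axis, log2) for every kept probe of the 10 genes with more than 1 (x axis), with the control siRNA in circles and the ERRγ siRNA in squares; filled symbols passed an adjusted p of 0.05. The probes of ECI2, SLC25A20, ETFB and PHYH lie on one side of 0, and those of AMACR and CPT1A lie around it.

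The ERRγ siRNA itself changed none of the 34 genes by the test. In vehicle 0 of 34 were called, beside 0.269% of all genes, and 9 had an unadjusted p under 0.05, beside 15.5% of all genes. Of those 9, 6 were higher and 3 lower, and the members' median difference was 0.09, beside 0.01 for all genes. ABCD3 had the lowest p. It read 6.20, 6.15 and 6.08 with the control siRNA and 6.58, 6.58 and 6.66 with the ERRγ siRNA, groups that did not overlap, and differed by 0.46 with a 95% interval of 0.21 to 0.72 (adjusted p = 0.106, limma), or by 0.15 in the authors' normalised values. The oxidase ACOX2 read 5.99, 6.37 and 6.19 against 5.69, 5.88 and 5.81, a difference of -0.39 (adjusted p = 0.115, limma), or -0.10 in the authors' values. ACADM read 9.61, 9.36 and 9.28 against 9.69, 9.74 and 9.73, a difference of 0.30 (adjusted p = 0.157, limma). The 3 arrays of each group lay apart for ACOX2 and for ACADM as well, as they did for 13 of the 34 members and for 22.3% of all genes. The members' separate 95% intervals ran between -0.62 and 0.72 on the scale used here. Each interval covers 1 gene and is not adjusted for the number of genes, so that range is no bound for the whole list. Other settings called 1 or 2 members here, all higher: ABCD3 with only the compared groups fitted or with a trended, robust prior, ABCD3 and ACADM with a background offset of 50, and ACADM with 1 more without background correction.

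In R1881 the ERRγ siRNA again left 0 of 34 called, beside 0 of all genes, and 0 members had an unadjusted p under 0.05, beside 6.12% of all genes. The members with the lowest p were CPT1A, PEX7 and CPT1B. CPT1A read 6.44, 6.56 and 6.59 with the control siRNA and 6.53, 6.91 and 6.77 with the ERRγ siRNA, a difference of 0.20 (adjusted p = 0.856, limma), or 0.07 in the authors' values. PEX7 read 8.02, 8.24 and 8.25 against 7.83, 8.14 and 8, a difference of -0.18, or -0.11 in the authors' values. CPT1B read 4.33, 4.97 and 4.59 against 4.60, 5.05 and 5.12, a difference of 0.29, or 0.03 in the authors' values. The groups of all 3 genes overlapped, and the intervals of the list ran between -0.41 and 0.67. Averaged over treatment, 0 of 34 were called (0.0292% of all genes) and 5 had an unadjusted p under 0.05 (10.8% of all genes), with ABCD3 at 0.29, ACOX2 at -0.23 and ACADM at 0.18. In the authors' values these were 0.09, -0.06 and 0.14.

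**Figure D5:**
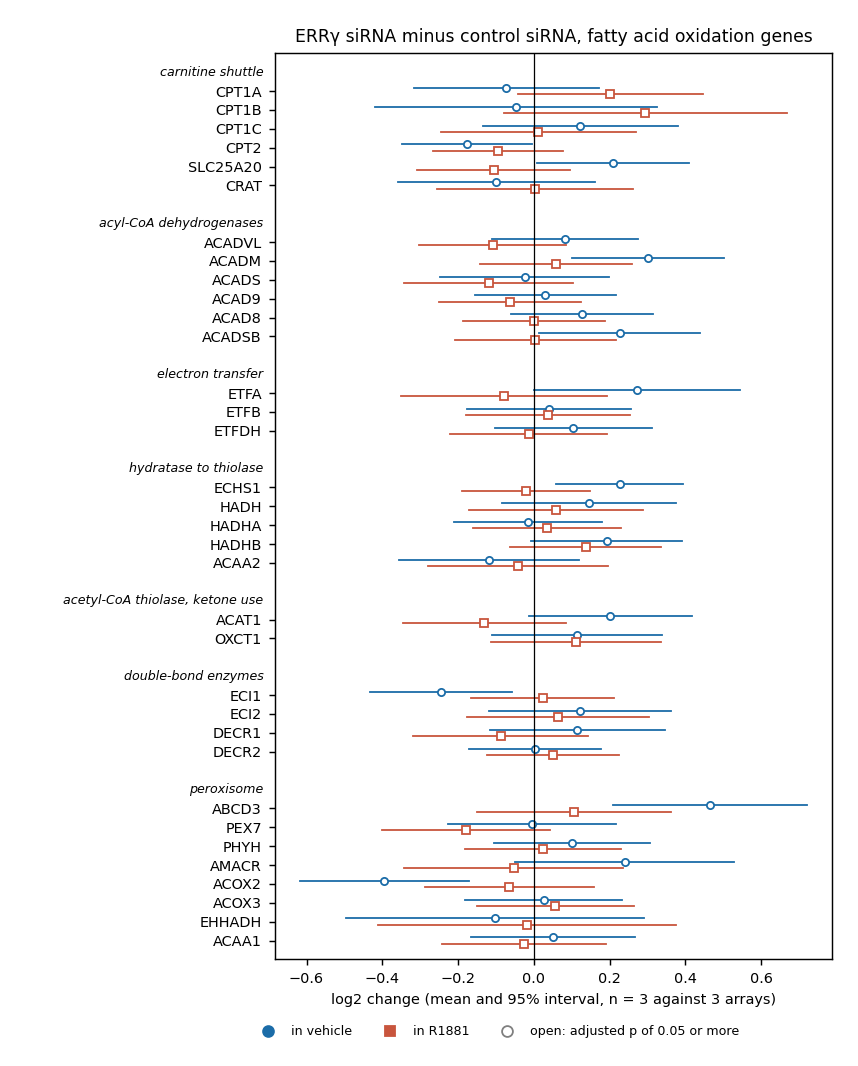
Difference between the ERRγ siRNA and the control siRNA (x axis, log2, mean and 95% interval, 3 arrays against 3) for the 34 tested genes by step (y axis), in vehicle as circles and in R1881 as squares. All symbols are open since none passed an adjusted p of 0.05, and in vehicle ABCD3 lies highest at 0.46 and ACOX2 lowest at -0.39.

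The interaction asks whether the R1881 change differed between the siRNAs, and it called 0 of 34 members, as it called 0 of all genes. An unadjusted p under 0.05 was reached by 5 of 34, beside 11.1% of all genes. SLC25A20 had the lowest p, with a rise smaller by 0.32 with the ERRγ siRNA, an interaction of -0.32 (95% interval -0.60 to -0.03, adjusted p = 0.408, limma). The other kept probe of SLC25A20, also detected on all 12 arrays, did not show this smaller rise. It rose by 1.31 with the control siRNA and 1.28 with the ERRγ siRNA, an interaction of -0.025 (adjusted p = 0.966, limma). ACAT1 read 11.16, 11.07 and 11.12 in vehicle and 10.61, 10.90 and 10.63 with R1881 under the control siRNA. Its ERRγ siRNA arrays read 11.42, 11.16 and 11.38 and then 10.55, 10.61 and 10.59, an interaction of -0.33 (adjusted p = 0.417, limma). For ACOX2, whose R1881 arrays read 6.57, 6.63 and 6.75 with the control siRNA and 6.55, 6.64 and 6.56 with the ERRγ siRNA, the interaction was 0.33 (adjusted p = 0.436, limma). In the authors' values the interaction was -0.14 for SLC25A20, -0.32 for ACAT1 and 0.08 for ACOX2. The members' intervals ran between -0.73 and 0.87, so a failure to call does not show that the responses were equal.

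Promoter windows of 300 bases were found in RefSeq (GRCh38.p14) for 27 of the 35 genes and searched on both strands. No window was found for CPT1B, CRAT, ETFDH, DECR1, DECR2, ACOX2, EHHADH and ACAA1, so the counts below do not cover these genes. The estrogen-related receptor element TNAAGGTCA was in 0 of 27, and in 0.951% of 35116 promoters. Its core AAGGTCA, which the longer element contains, was also in 0 of 27, and in 3.92% of all. The androgen receptor element of a pair of inverted AGAACA hexamers 3 bases apart was in 0 of 27, and in 1 promoter of all. The lone hexamer AGAACA was in 7.41% of the members' windows, those of ETFB and PHYH, and in 14.8% of all. Both genes fell with R1881, and their windows are printed for that reason, ETFB at chr19:51354793-51355092 and PHYH at chr10:13299714-13300013, both on the minus strand, with the hexamer in capitals. In PHYH it lies on the opposite strand and is printed as TGTTCT.
ETFB: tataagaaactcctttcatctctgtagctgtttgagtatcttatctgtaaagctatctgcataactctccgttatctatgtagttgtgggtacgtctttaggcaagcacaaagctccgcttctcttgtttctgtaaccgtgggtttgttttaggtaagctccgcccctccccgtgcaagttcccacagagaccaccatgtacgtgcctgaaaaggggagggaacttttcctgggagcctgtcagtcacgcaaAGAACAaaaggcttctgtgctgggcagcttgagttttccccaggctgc
PHYH: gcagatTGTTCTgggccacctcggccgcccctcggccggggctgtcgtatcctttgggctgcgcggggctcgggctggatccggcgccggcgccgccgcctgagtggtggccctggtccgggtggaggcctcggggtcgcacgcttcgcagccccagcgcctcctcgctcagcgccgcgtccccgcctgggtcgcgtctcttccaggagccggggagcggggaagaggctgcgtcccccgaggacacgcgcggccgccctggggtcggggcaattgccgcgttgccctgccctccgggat
A match is a run of letters and not a known binding site, and these windows leave out distal elements.

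The neighbouring genes of the pathway, a list of 71 that are not members, had 58 tested. With the control siRNA R1881 raised 18 and lowered 12, beside the same 40.0% of all genes (17.7% higher and 22.3% lower). With the ERRγ siRNA 14 rose and 12 fell, beside 37.1% of all genes (16.7% higher and 20.4% lower). With the control siRNA, activation and carnitine supply had 6 of 12 higher and 1 lower. Peroxisome biogenesis had 2 of 12 higher and 3 lower, which is near the shares of all genes. The other peroxisomal genes had 3 of 11 higher and 2 lower, with a median change of -0.10. The other mitochondrial genes had 5 of 14 higher and 5 lower, with a median of 0.08. Ketone body genes had 2 of 4 higher and 0 lower, and regulators 0 of 5 higher and 1 lower. ACSL3, an acyl-CoA synthetase that activates fatty acids, read 9.25, 9.12 and 9.29 in vehicle and 12, 12.24 and 12.17 with R1881 under the control siRNA, a rise of 2.92. That change and the 2.38 of PEX10, a peroxisomal membrane ligase, lie above every member. CROT, which makes medium-chain carnitine esters for export from peroxisomes, rose by 1.25.

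The lowest of these neighbours were ACAD11 at -1.23 and ACAD10 at -1.04, both related to the acyl-CoA dehydrogenases, MMUT at -0.87, the mutase that passes propionate carbon into the citric acid cycle, and RXRA at -1.18, the partner receptor of the PPARs. All 4 were called with the control siRNA. With the ERRγ siRNA ACAD11, ACAD10 and MMUT fell again, by 0.998, 0.878 and 1.29, while RXRA read -0.33 (adjusted p = 0.117, limma). RXRA's interaction of 0.85 was not called (adjusted p = 0.24, limma). In the authors' normalised values PEX10 read 1.18, CROT 0.38, ACAD11 -0.69 and ACAD10 -0.45 with the control siRNA. None of the 58 was called in an ERRγ siRNA comparison or in the interaction.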

How the data were processed

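The authors deposited a raw table with the intensity of each bead-array probe and its detection p-value, and a second table of normalised log2 values, per the file headers. Neither their normalisation method nor the array platform was named in the labels or headers read here. The raw intensities were background-corrected with limma 3.58.1 (R 4.3.3; nec, offset 16, background estimated through the detection p-values), quantile normalised and put on a log2 scale, so levels are relative to the other genes of an array. The 92 spike-in controls were left out. Probes needed a detection p-value below 0.05 on 3 or more of the 12 arrays (21959 did), and the brightest kept probe stood for its gene (17121 genes). Probes were named by RefSeq accession (28588), by current symbol (2514) or as in the file (16221). lmFit and eBayes gave 1 mean per group over all 12 arrays, and p-values were Benjamini-Hochberg adjusted over all genes tested. The fit was tested on simulated data. Arrays with the same replicate number did not deviate together (1 of 18 pairs correlated above 0.1), so the numbers were not used as a block. Precision is set by 3 arrays a group: a member's R1881 change had a 95% half-width of 0.169 to 0.393.

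Members and gene lists were chosen with earlier results of these data known. Every member is named. Values on every array are given for members called in both R1881 comparisons with at least 1.5-fold change under the control siRNA and for the 3 of lowest p in an ERRγ siRNA comparison or the interaction. Of the other pathway genes, the 4 highest and 4 lowest called changes were chosen, and 1 of them is not reported here. The search for AAGGTCA was added after TNAAGGTCA had no match. Alternatives were the background correction, its offset, the authors' values, the detection filter, how probes were combined, fits of only the groups compared, array weights, the variance prior, the replicate block and leaving out each array.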

Additional observations from a re-analysis of the deposited data

How the results depend on the processing

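Of 47 changes called in named genes, 44 kept their call and direction under all 23 alternatives that were run, and none reversed. The exceptions were control siRNA calls for R1881: CPT2 was lost when only the groups compared were fitted. ACADVL was lost under that setting and without control siRNA vehicle replicate 1 or R1881 replicate 2 (0.25 each). ABCD3 was lost under 12 alternatives, 9 of them leaving out an array, with values of 0.11 to 0.42 over all alternatives (0.21 without control siRNA R1881 replicate 3). The number of members called for R1881 ran from 18 to 22 with the control siRNA and from 18 to 20 with the ERRγ siRNA. When each array was left out in turn it was 19 to 21 and 18 to 20, and 0 throughout for the ERRγ siRNA comparisons and the interaction. Members called for the ERRγ siRNA in vehicle became 2 without background correction, 2 with an offset of 50, 1 with only the groups compared and 1 with a trended, robust prior. With the replicate number as a block, 20 and 18 members were called for R1881 and 0 in the other comparisons, and ABCD3 was the call lost (0.32). The cause of these shifts was not tested.

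Directions reversed only for changes that were not called. In R1881 against vehicle with the control siRNA, leaving out each array in turn gave ACADM -0.0385 (without vehicle replicate 3) to 0.131, PEX7 -0.0699 to 0.0459 (above 0 without vehicle replicate 1 or R1881 replicate 1) and AMACR -0.00626 (without R1881 replicate 2) to 0.159. With the ERRγ siRNA it gave CPT1B -0.166 to 0.0934 (without R1881 replicate 1), ACADS -0.102 to 0.0628 (above 0 without vehicle replicate 1 or R1881 replicate 2) and ACAD9 -0.049 to 0.00665 (without vehicle replicate 2). It also gave ETFDH -0.00336 (without vehicle replicate 3) to 0.105, OXCT1 -0.0215 to 0.152 (below 0 without vehicle or R1881 replicate 2) and ABCD3 -0.146 to 0.0538 (without R1881 replicate 3). Array weights turned PEX7 to 0.00297 with the control siRNA. The mean of a gene's probes turned AMACR to -0.0814 with the control siRNA, CPT1A to -0.0549 with the ERRγ siRNA, and the difference of CPT1A between the siRNAs in R1881 to -0.00563.

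Leaving out an array made some uncalled R1881 changes pass. CPT1B did so with the control siRNA without vehicle replicate 2 (-0.52) or R1881 replicate 2 (-0.58). With the ERRγ siRNA CPT1C passed without vehicle replicate 2 (-0.43) or R1881 replicate 2 (-0.40), AMACR without vehicle replicate 2 (-0.37), and ACADM without control siRNA vehicle replicate 1 (-0.21). Other settings also made uncalled changes pass. No background correction, an offset of 50 and the authors' values did so for DECR2 with the control siRNA and for ACADM and ECHS1 with the ERRγ siRNA, all lower. A trended, robust prior did so for ACADM, and array weights or a detection limit of 0.01 for CPT1C, with the ERRγ siRNA. Of all genes, those called for the ERRγ siRNA in vehicle ran from 1, without control siRNA vehicle replicate 3, through 46 to 482, without background correction. The interaction called up to 174, without control siRNA R1881 replicate 1. The counts for R1881 ran from 6039 to 7074 and from 5531 to 7037. Signal near background limits CPT1B, which was above it on 9 arrays. Raw signals were also low for ACADSB (103.6 to 123.5), CPT1C (107 to 125) and EHHADH (103.3 to 149.7), though detected on all 12. The arrays' medians over all probes were 93.9 to 101.1.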
